A study of Caenorhabditis elegans with 6 samples.

Results

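The MATH-domain genes of Caenorhabditis elegans named bath or math followed by a number were followed as targets of 22G-RNAs in adult males with and without PRG-1. Members were the protein-coding genes with such a symbol in the authors' transcript table, leaving out bath-45. The rule gave 78 of 20222 protein-coding genes, 36 of them bath and 42 math. Whole animals were profiled by small RNA sequencing in 3 libraries of wild type and 3 of prg-1 null, each from 20 to 30 males kept at 25 °C and taken 24 h after mid-L4. The prg-1 null animals, the mutant below, lack the Piwi-class Argonaute PRG-1. The labels name neither the allele nor any change that both genotypes share. Genome-aligned reads ran from 973971 to 2205341 per library. In a check of the labels, 22G-RNAs on prg-1 itself averaged 1482 ± 350 CPM in wild type, against 43.4 ± 13.2 CPM in the mutant (SD, n = 3 each, a scale defined below).

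The MATH domain is a substrate-binding fold shared with the TRAF proteins. In bath genes it is joined to a BTB domain, which binds the cullin CUL-3, so that proteins of this kind act as adaptors that bring substrates to a ubiquitin ligase. The best known worm adaptor of this type, MEL-26, directs the katanin subunit MEI-1 to destruction after meiosis. Most math genes carry MATH domains without BTB, and both groups are expanded in tandem arrays on the left arm of chromosome II. 22G-RNAs are siRNAs made on mRNA templates by RNA-dependent RNA polymerases. They are antisense to their target, about 22 nt long and start with G. In the germline, piRNAs bound to PRG-1 can start their production on a target mRNA. The reads describe small RNAs and not the mRNA or protein of these genes. In whole animals, fewer cells that make a small RNA cannot be told apart from less of it per cell.

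The 22G class here holds reads opposite in strand to the spliced transcript, 21 to 23 nt long, whose first base is G. For each gene the isoform with the most reads on average was used. Levels are CPM, reads per 1000000 such reads on the genes tested, after TMM scaling. Of the 78 members, 53 had at least 1 such read in the 6 libraries and 25 had none. The groups differed here, since 32 of 36 bath genes but 21 of 42 math genes carried a read. Over all protein-coding genes 40.1% had none.

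The family's 22G-RNAs were lower in the mutant on bath genes and higher on math genes. Summed over the 36 bath genes, the level was 6869, 9917 and 7684 CPM in the wild type libraries and 598, 339 and 457 CPM in the mutant. Every wild type library lay above every mutant library, and the means differed 17.6-fold. Summed over the 42 math genes, it was 494, 666 and 532 CPM in wild type and 1351, 1216 and 1675 CPM in the mutant. Here each mutant library lay above each wild type library, by 2.51-fold between means. Both orders also held when reads were scaled to genome-aligned reads without those of rbd-1 and daf-15, with 12.1-fold for bath and 3.63-fold for math. Without bath-20 and bath-24, the richest bath genes, the family total was 3977 ± 492 CPM against 1831 ± 299 CPM, again with no overlap. Without math-1 and math-31, the other 40 math genes stood at 397 ± 85.3 CPM against 344 ± 130 CPM, with overlapping libraries. No test was made on these sums. The members together made up 0.702%, 0.817% and 0.849% of the 22G reads on protein-coding genes in wild type, and 0.180%, 0.143% and 0.171% in the mutant.

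**Figure D1:**
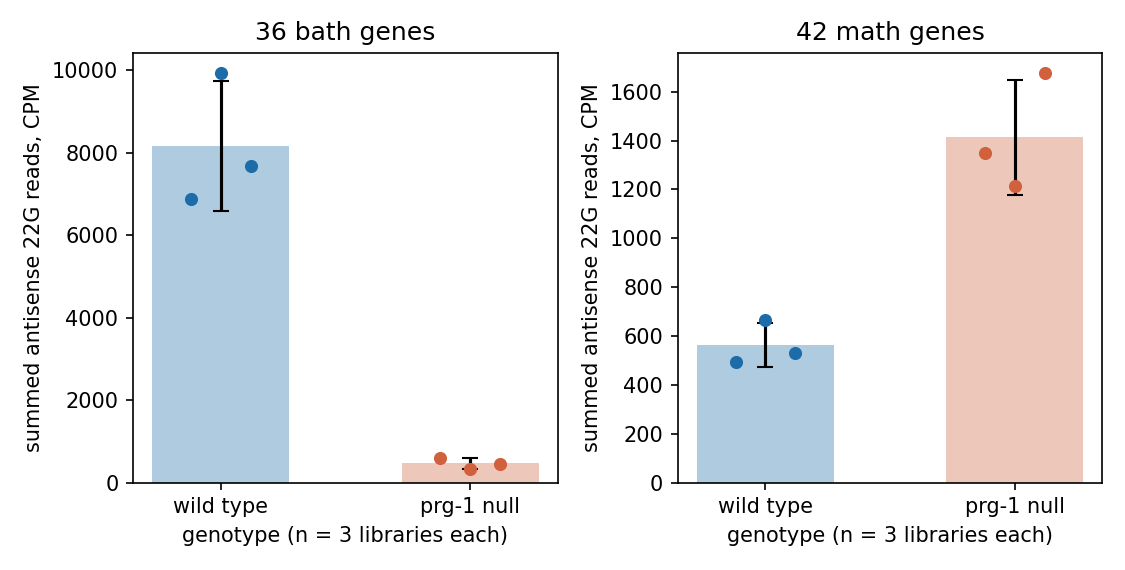
Summed antisense 22G reads (CPM, y axis) on the 36 bath genes and the 42 math genes by genotype; points are libraries, bars means and error bars SD (n = 3). Bath genes stood at 8157 ± 1578 CPM in wild type, against 464 ± 130 CPM in the mutant, and math genes at 564 ± 90.2 and 1414 ± 236 CPM, with separate y scales.

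Only 16 members had enough reads to be tested, 12 bath and 4 math. In a fit over all 2879 testable protein-coding genes (edgeR, Benjamini-Hochberg threshold 0.05), 11 of the 16 fell in the mutant, 2 rose and 3 did not pass. Of all genes tested, 32.6% were called lower and 12.4% higher. The 11 that fell were all bath genes, and the 2 that rose were math genes. Median log2 fold change was -5.74 over the 16 members and -0.11 over all genes tested. A gene with reads in 1 genotype alone could enter the test only by differing, so these counts do not describe the 62 members that were not tested. The shares were not tested against each other. The libraries of the 2 genotypes did not overlap in the 11 that fell and the 2 that rose, as is likely in called genes. They also did not overlap in math-33 and bath-40, which lay wholly higher in the mutant without passing. Over all tested genes, called or not, 34.4% lay wholly lower and 20.7% wholly higher.

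**Figure D2:**
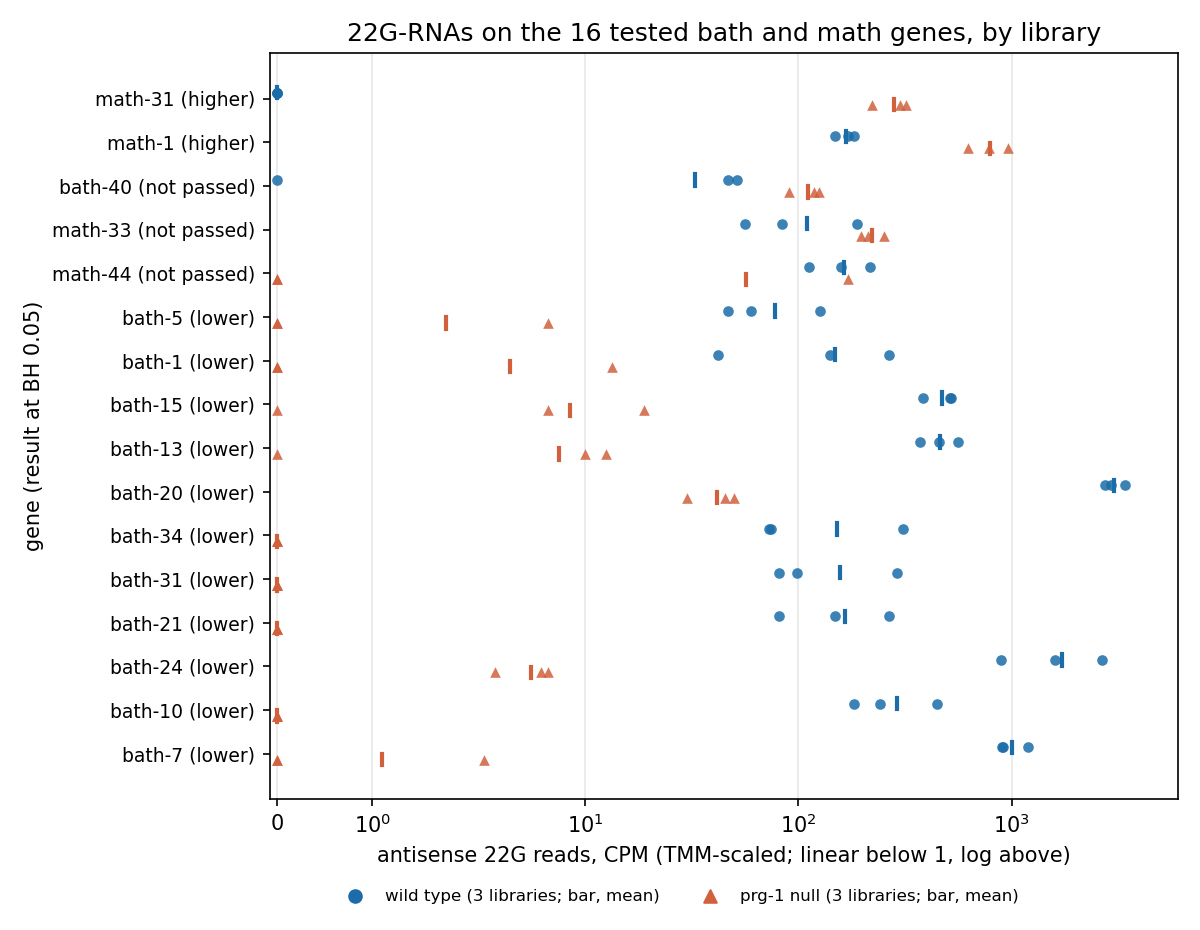
Antisense 22G reads (CPM, linear below 1 and logarithmic above) of the 16 tested members in each library, sorted by log2 fold change; points are libraries and short bars the mean of 3. The 11 bath genes called lower show no overlap between genotypes, while math-31 and math-1 at the top lie higher in every mutant library.

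The richest target among the members was bath-20 (WBGene00015012; WBcel235 chromosome II, 2040395 to 2041629, minus strand), a BTB and MATH domain gene. It had 314, 799 and 196 reads in wild type and 8, 12 and 9 in the mutant, or 2927, 3410 and 2743 CPM against 49.8, 45.2 and 30.0 CPM. The wild type libraries lay close together and far above the mutant ones. The means differed 72.6-fold, with a log2 fold change of -6.19 ± 0.42 (SE; edgeR adjusted p = 5.2e-11). Per kilobase of transcript, bath-20 had the highest wild type level of the members at 2944 CPM, ahead of bath-24 at 2075 CPM and bath-7 at 999.9 CPM. When all antisense reads were counted, its log2 fold change was -4.23. Reads of 20 nt with a first G, which the 22G class leaves out, numbered 15, 36 and 42 on bath-20 in wild type. They numbered 7 and 69 in the first and second mutant libraries.

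The neighbouring bath-24 (WBGene00015014; chromosome II, 2044619 to 2045601, minus strand) held 96, 624 and 114 reads in wild type and 1, 1 and 2 in the mutant. Its wild type level varied, at 895, 2663 and 1596 CPM, yet the mutant level was 5.55 ± 1.57 CPM. The log2 fold change was -8.13 ± 0.63 (edgeR adjusted p = 4.0e-10). The gene bath-7 (WBGene00018667; chromosome II, 1919926 to 1921111) had 97, 280 and 65 reads in wild type, and 1 read in all 3 mutant libraries. With reads pooled and scaled for depth the ratio was 777, with a 95% counting interval of 139 to 30754 (edgeR adjusted p = 8.0e-10). Such intervals cover counting error only. Without the third mutant library, which held that read, the log2 fold change of bath-7 was -10.50 in place of -8.96.

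A pair of bath genes at separate sites fell by similar factors. bath-13 (chromosome II, 2520965 to 2522044) had 373, 457 and 560 CPM in wild type and 12.5, 0 and 10.01 CPM in the mutant. bath-15 (chromosome III, 7774778 to 7776039) had 382, 516 and 518 CPM in wild type and 0, 18.8 and 6.67 CPM in the mutant. These were 61.9-fold and 55.6-fold differences between means (edgeR adjusted p = 2.2e-07 and 3.1e-07). Leaving out 1 mutant library moved both values by over 1.5 times. The log2 fold change of bath-13 was -6.51 without the third such library in place of -5.92, and that of bath-15 was -6.60 without the second in place of -5.55.

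Of the 11 bath genes that fell, 4 had no 22G read in the mutant. Over all genes tested, 209 of the 938 called lower had none there. The untested bath-35, bath-39, bath-38, bath-9 and bath-36 also had no mutant read, beside 1 to 4 reads each in wild type. The untested bath-3 and bath-46 had 3 and 2 reads in the mutant and none in wild type. Among all untested members, 9 had reads in wild type alone and 8 in the mutant alone. For the 4 called genes without a mutant read, fold changes are lower bounds, set against 3 reads over the 3 mutant libraries, which is 4.13 CPM. bath-10 (chromosome II, 3375079 to 3376714) had 26, 105 and 13 reads in wild type, or 291 ± 140 CPM, and was at least 70.4-fold lower (edgeR adjusted p = 4.5e-07). bath-21 (chromosome II, 2025642 to 2026610) had 16, 19 and 19 reads and was at least 40.0-fold lower (adjusted p = 1.3e-05). bath-31 (chromosome II, 3731973 to 3733203) had 31, 19 and 7 reads and was at least 37.8-fold lower (adjusted p = 1.8e-05). bath-34 (chromosome I, 12749890 to 12752067) had 8, 17 and 22 reads and was at least 36.7-fold lower (adjusted p = 3.9e-05). Single wild type libraries moved the last 2. The fitted log2 fold change of bath-31 was -7.16 without the first wild type library in place of -7.88, and that of bath-34 was -6.97 without the third in place of -7.78.

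The called genes with the largest adjusted p were bath-1 and bath-5. bath-1 (chromosome II, 2027612 to 2028812) had 15, 62 and 3 reads in wild type and 0, 0 and 4 in the mutant (log2 fold change -4.73 ± 0.96, edgeR adjusted p = 2.2e-04). bath-5 (chromosome II, 2030750 to 2031952) had 5, 14 and 9 reads in wild type and 0, 0 and 2 in the mutant. Its pooled ratio was 24.6 (95% counting interval 6.21 to 213; edgeR adjusted p = 0.0012). For bath-1 the log2 fold change was -7.75 without the third mutant library and -4.09 without the second. bath-1 did not pass the filter on low counts without the second wild type library, nor did bath-5 without that library or without the second or the third mutant library.

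Gains were seen in 2 math genes. math-1 (WBGene00015015; chromosome II, 2045963 to 2046656, minus strand) had 16, 40 and 13 reads in wild type and 126, 166 and 288 in the mutant. These are 149, 171 and 182 CPM against 784, 625 and 961 CPM, a 4.72-fold rise with tight wild type libraries (log2 fold change 2.24 ± 0.44, edgeR adjusted p = 1.6e-04). math-31 (WBGene00018663; chromosome II, 1912450 to 1912841, minus strand) had no 22G read in any wild type library and 48, 85 and 66 in the mutant. At 280 ± 52.6 CPM it was at least 38.5-fold above the level of 3 reads over the wild type libraries, 7.26 CPM (edgeR adjusted p = 1.6e-06). Per kilobase of transcript, math-1 and math-31 had the highest mutant levels of the tested members, at 1214 and 813 CPM. Most added antisense reads were of the 22G class, which made up 580 of 727 antisense reads on math-1 in the mutant and 199 of 269 on math-31. Of the family's pooled reads, 93.6% lay on bath genes in wild type and 76.3% on math genes in the mutant. Both sums moved, the bath sum from 8157 to 464 CPM and the math sum from 564 to 1414 CPM.

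The 3 tested members that did not pass were math-33, math-44 and bath-40. math-33 (chromosome V, 11113914 to 11118818) encodes the worm counterpart of the ubiquitin protease USP7. It stood at 83.9, 188 and 55.99 CPM in wild type, against 212, 252 and 197 CPM in the mutant (edgeR adjusted p = 0.18). The libraries did not overlap, and the value passed without the second wild type library (log2 fold change 1.63 in place of 0.90, adjusted p = 0.0498). The span of math-33 overlaps that of scb-1 on the other strand. Antisense reads in any stretch that both transcripts share cannot be told apart from sense reads of scb-1. How many reads lie in such a stretch was not tested. bath-40 (chromosome I, 14647782 to 14651456) stood at 32.6 ± 28.3 CPM in wild type, against 111 ± 18.2 CPM in the mutant (edgeR adjusted p = 0.092). Its libraries also did not overlap. It passed when scaled to genome-aligned reads (adjusted p = 0.0254). math-44 (chromosome II, 1987285 to 1990667) had 17, 51 and 8 reads in wild type and 0, 0 and 51 in the mutant. All of its mutant reads came from the third library, 45 of them 22 nt long. Leaving it out gave a log2 fold change of -7.88 in place of -1.46 (adjusted p = 7.1e-05), and without the second mutant library it was -0.80 and did not pass.

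Of the 62 members not tested, 37 had 1 to 55 22G reads over the 6 libraries, with a median of 5. Between them they held 257 reads in wild type and 244 in the mutant, or 577 ± 114 against 350 ± 161 CPM. By library these were 503, 708 and 518 against 467, 166 and 417 CPM, without overlap. The reads numbered 54, 166 and 37 against 75, 44 and 125. Scaled to genome-aligned reads without rbd-1 and daf-15, the genotypes overlapped, so the separation depended on the scaling. After scaling for depth, 23 of these members had more in wild type and 14 more in the mutant. The deepest were bath-23 with 1, 37 and 7 reads in wild type and 0, 0 and 10 in the mutant, and bath-43 with 0, 10 and 5 against 8, 9 and 16. They were followed by bath-4 with 5, 9 and 0 against 15, 8 and 9, and bath-42 with 11, 9 and 0 against 8, 5 and 11. In all 4 the genotypes overlapped. bath-23 entered the test under some alternatives. Its log2 fold change was -2.73 with no filter on low counts (edgeR adjusted p = 0.043) and -7.01 without the third mutant library (adjusted p = 0.0043). It did not pass without the first mutant library (-2.33, edgeR adjusted p = 0.067) or without the second (-2.18, adjusted p = 0.128). bath-28, with 4, 30 and 0 reads against 3, 0 and 0, was also called lower with no such filter (log2 fold change -3.51, adjusted p = 0.043). With 3 reads over a group as the limit of detection, the 25 members without a read lie below 7.26 CPM in wild type and 4.13 CPM in the mutant.

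Position was examined because the family is arrayed. On chromosome II lay 65 members, and 63 of them fell between 1028987 and 3733203, a stretch with 714 protein-coding genes and 13 annotated piRNA loci in the Ensembl annotation of the same build. No piRNA locus overlapped a member. Reads were uneven along the stretch. The 26 members from 1601789 to 1904446, 24 of them math genes, held 43 reads in wild type and 60 in the mutant, and none could be tested. By contrast the 8 members from 2025642 to 2046656 held 2381 and 628 reads, and 6 were tested, with 5 lower and 1 higher. Chromosomes I, III, IV and V held the other 13 members, of which bath-34 and bath-15 fell.

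Neighbouring called genes moved in the same or in opposite directions. bath-21 and bath-1 lie next to each other in the family's order and both fell, as did bath-20 and bath-24. bath-24 and math-1 lie 361 bases apart on the same strand, and bath-24 fell while math-1 rose. In the other run, over 1912450 to 1921111, math-31 rose and bath-7 fell, with the untested bath-4 and the pseudogenes bath-11 and bath-6 between them. Within the run around bath-20, the untested bath-3 (0 reads in wild type and 3 in the mutant) and bath-19 (7 and 6 reads) lay between bath-1, bath-5 and bath-20, which all fell. The rule by which the authors placed reads that match several family members is not given in the sources used here, and the part of such reads in these values was not tested.

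**Figure D3:**
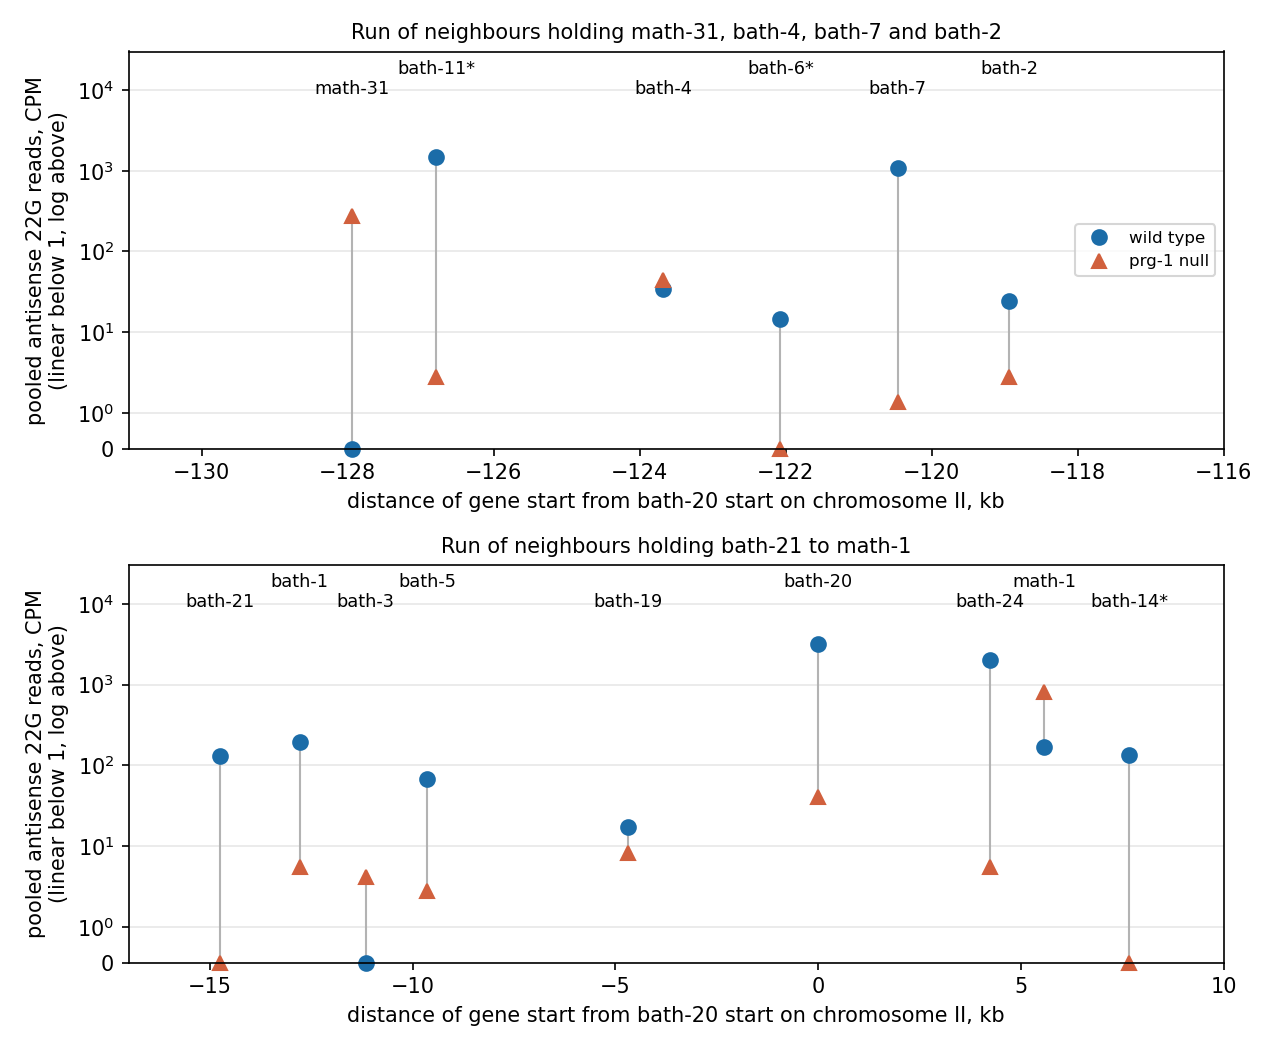
Antisense 22G reads pooled over 3 libraries per genotype (CPM, linear below 1 and logarithmic above) of bath and math genes against the distance of each gene's lower coordinate from that of bath-20 in kb; asterisks mark annotated pseudogenes, which are not members, and other genes are not drawn. In the lower panel bath-24 and math-1, 361 bases apart, differ in direction.

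The class of read was checked next. Among antisense reads on members, 62.2% (95% exact binomial interval 59.5% to 64.9%), 71.2% (69.7% to 72.7%) and 63.8% (60.6% to 66.9%) were 22G in the wild type libraries. In the mutant the shares were 59.6% (55.3% to 63.8%), 54.6% (51.0% to 58.2%) and 62.9% (59.8% to 65.9%). Over all protein-coding genes they were 36.7%, 52.3% and 31.6% in wild type, then 47.99%, 51.7% and 55.2% in the mutant. The members' share was above that of all genes in each library, and in the second mutant library its interval held the all-gene value. Within the 22G class, reads of 22 nt made up 62.9% to 67.2% in wild type and 38.5% to 55.1% in the mutant. With antisense reads of every length and first base counted, most called members lay closer to 0 on the log2 scale and all stayed past the threshold. The log2 fold change was then -4.27 for bath-34, -5.34 for bath-21, -6.75 for bath-7, -7.31 for bath-10 and 5.79 for math-31. It was -4.83 for bath-13, -4.79 for bath-15, -7.39 for bath-24 and -3.68 for bath-5. Members differed in length. In wild type 239 of 442 reads on bath-7 were 21 nt long, 571 of 834 on bath-24 were 22 nt and 33 of 57 on bath-31 were 23 nt. Reads of 25 to 27 nt starting with G, the length of 26G-RNAs, were rare over the members together. They stood at 30.5 ± 12.8 and 14.1 ± 7.43 per 1000000 genome-aligned reads without rbd-1 and daf-15, with overlapping libraries. On bath-44, picked after these counts were seen, they numbered 31 of 56 antisense reads in wild type and 7 of 57 in the mutant. Its 22G reads numbered 14 and 17.

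**Figure D4:**
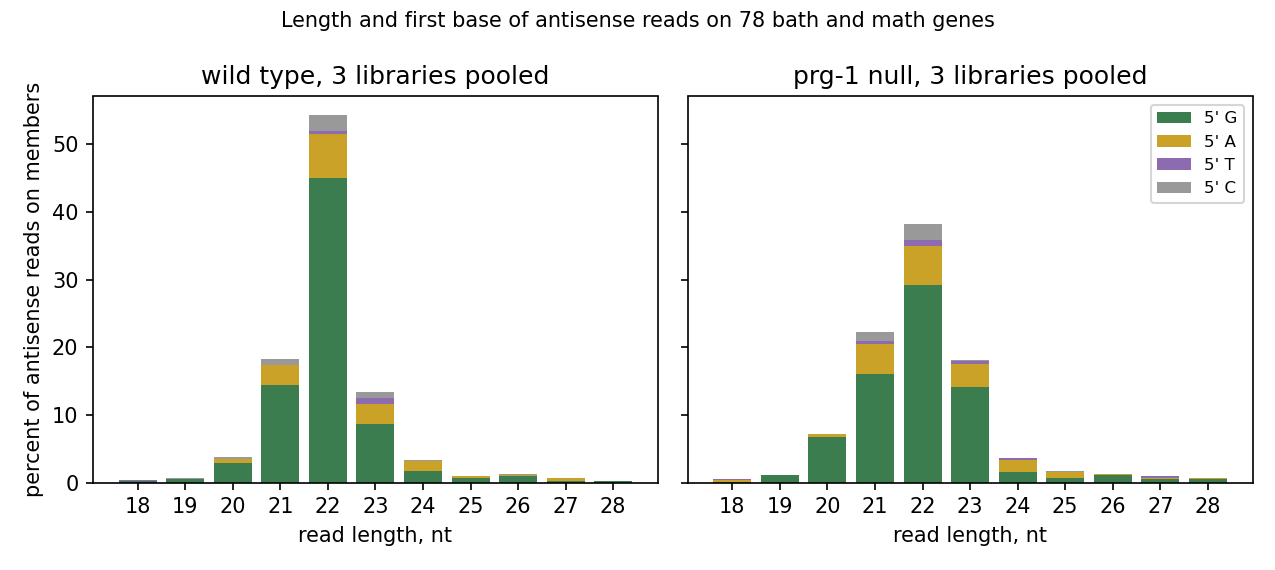
Share of antisense reads on the 78 members (percent, y axis) by read length (nt) and first base, pooled over 3 libraries for wild type and for prg-1 null. Reads of 22 nt starting with G made up 44.96% in wild type and 29.3% in the mutant, and reads of 23 nt starting with G 8.62% and 14.2%.

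Sense reads, which the comparison above did not use, showed another member. math-48 (chromosome II, 1945518 to 1946517, minus strand) had no antisense 22G read in any library. On its sense strand, reads of this length and first base numbered 5, 32 and 13 in wild type, against 83, 188 and 193 in the mutant. That is 15.3 ± 9.08 against 113 ± 19.4 per 1000000 genome-aligned reads without rbd-1 and daf-15, 7.41-fold higher with no overlap between genotypes. The Ensembl annotation lists no gene on the opposite strand there. The nearby math-49 had 11, 59 and 16 such sense reads in wild type and 17, 22 and 90 in the mutant, with overlapping levels. All other members together had 161 and 76. math-15 had 39, 87 and 143 sense reads in wild type and 8, 13 and 27 in the mutant, none of this class. These 3 genes were picked for their sense reads after the values were seen, and no test was made.

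Other genes around the same ubiquitin ligase were read from a list of 30 genes, 29 of them in the table. The list also holds genes that are not parts of the ligase, such as the substrate gene mei-1. Its counts and median therefore do not describe the ligase alone. Of 9 tested, csn-4 rose, ubc-12 and cand-1 fell, and 6 did not pass, with a median log2 fold change of 0.81 against -0.11 over all genes. The shares were 22.2% lower and 11.1% higher, beside 32.6% and 12.4% over all genes tested. csn-4, a subunit of the COP9 signalosome that strips NEDD8 from cullins, had 0, 9 and 5 reads in wild type and 42, 43 and 98 in the mutant (log2 fold change 2.85 ± 0.70, edgeR adjusted p = 0.0016). ubc-12, the NEDD8-conjugating enzyme, had 10, 33 and 8 against 0, 8 and 5 (adjusted p = 0.0067). cand-1, which binds cullins free of NEDD8, stood at 274 ± 77.97 CPM against 85.4 ± 12.99 CPM (log2 fold change -1.65 ± 0.50, adjusted p = 0.0085). The scaffold gene cul-3 stood at 95.2 ± 14.8 and 175 ± 22.1 CPM and did not pass (adjusted p = 0.20). mel-26 had 11 reads in wild type and 12 in the mutant, too few to test. Of 3 other MATH domain genes, mel-26, trf-1 and trf-2, none could be tested.

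Adaptor families of similar build gave these counts in the same fit. Over all genes tested 32.6% were lower and 12.4% higher, and of the tested bath and math members 68.75% were lower. Of 177 fbxa F-box genes 21 were tested, with 14 lower (66.7%) and 1 higher. Of 106 fbxb genes 7 were tested, with 2 lower (28.6%) and 1 higher, and of 49 fbxc genes 5, with 4 lower (80%). None of 18 btb genes, which have the BTB domain without MATH, could be tested. No test of a difference between these families was made. The excluded bath-45 lies apart on chromosome II (13123038 to 13124789). It stood at 6619 ± 1274 CPM in wild type against 18.2 ± 5.48 CPM in the mutant.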

How the data were processed

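The authors deposited expected counts of trimmed small RNA reads per annotated transcript (35862, WBcel235) and per genome bin, split by strand and, per the file headers, listed by length and first base. The values were whole and were used as they stood. Per the submitters' processing notes, cutadapt 3.7 and FastQC 0.12.0 were used; the aligner is not given in the sources used here, nor is its rule for reads matching several places. Acid pyrophosphatase was used before cloning, per the labels' protocols, which admits RNAs with a 5′ triphosphate.

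Antisense 22G counts of all protein-coding genes were fitted with edgeR 4.0.16 (R 4.3.3; quasi-likelihood, filterByExpr, TMM, genotype alone), with Benjamini-Hochberg adjustment over 2879 genes. In one alternative scaling, genome-aligned reads were taken without those of rbd-1 and daf-15, which held 189368 to 405757 reads per library. The tables also served for totals, exact intervals and figures in Python 3.11.15 (pandas 2.3.3, scipy 1.17.1, matplotlib 3.10.9). Nothing in the labels says that libraries came from separate cultures, so p-values measure the spread between these libraries, which may be technical. Depth was 69111 to 373032 22G reads per library.

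The members and gene lists were chosen with earlier results of these data known. All called members are named, with the 3 tested ones that did not pass and the 4 untested ones with most reads. DESeq2 1.42.0, other scalings, filters, read classes, isoform sums, a replicate block and leaving out each library were the alternatives. The planned comparison of member sequences was not run.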

Additional observations from a re-analysis of the deposited data

Results flagged for a closer look

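Sense reads on the members with the length and first base of 22G-RNAs lay outside the comparison of antisense reads, and each prg-1 null library exceeded each wild type library. They stood at 41.5, 122 and 98.9 per 1000000 genome-aligned reads without rbd-1 and daf-15 in wild type and at 125, 177 and 176 in prg-1 null. The prg-1 null mean was 159.3 and the wild type mean 87.5. In prg-1 null, math-48 held 464 of the 669 such reads, against 50 of 297 for wild type. The rise in the sum therefore rests largely on this gene. Members other than math-48 and math-49 went the other way, with 161 such reads in the wild type libraries and 76 in those of the mutant.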

How the results depend on the processing

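Under 17 alternatives, each of the 13 called members kept its direction and stayed past the threshold wherever it could be tested. Members called lower numbered 11, but 7 with at least 10 reads in 3 libraries and 6 with 22 nt reads alone, where 12 and 10 members were testable. They numbered 13 with no filter on low counts, bath-23 and bath-28 being added, and 12 with all antisense reads, which brought most fitted values closer to 0. They numbered 10 with isoforms summed or pseudogenes kept, where bath-1 was not testable. The log2 ratio of the summed family level (prg-1 null over wild type) was -2.22, -1.68 when scaled to genome-aligned reads and -2.63 with 22 nt reads alone. Genome-aligned scaling raised the median gene by 0.54 and called 578 genes higher in place of 357 and 851 lower in place of 938. Leaving out 1 library in turn gave 2 to 3 members higher, 9 to 12 lower, 288 to 401 genes higher and 785 to 1204 lower, and a summed log2 ratio of -2.32 to -2.05. The cause of these shifts was not tested, except that stricter filters tested fewer genes. DESeq2 called 2 members higher and 11 lower. Same-numbered libraries did not deviate together (r = -0.04, 0.05 and 0.01). Counting error at low depth also brings such values down, so whether these libraries share more than a number was not settled. With the replicate block 2 members were higher and 12 lower, math-44 being added, and 306 genes were higher and 890 lower. Depth limits the 62 untested members.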

Other observations

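Annotated pseudogenes with bath or math symbols, which are not members, also carried 22G-RNAs. Of 14, 7 had no read, and the rest held 788 reads in wild type, against 5 in prg-1 null males. With pseudogenes kept in the fit 3 were testable and all fell. bath-11 (chromosome II, 1913605 to 1916376), between math-31 and bath-4, had 128, 412 and 66 reads in wild type and 0, 0 and 2 in the mutant (edgeR adjusted p = 7.7e-10). bath-22 had 23, 38 and 4 reads against none (adjusted p = 1.6e-05), and bath-12 had 6, 28 and 9 against none (adjusted p = 7.4e-05).

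Reads on bath-4 overlapped between genotypes in number and differed in length. Its 22G reads were 21 or 22 nt long in wild type, 6 and 8 reads, and in the mutant 29 of 32 were 23 nt long, at 12, 8 and 9 in the 3 libraries. On bath-20, 22 of the 29 mutant reads were 23 nt long, set beside 166 of 1309 in wild type. Both genes were chosen after their read lengths were seen, and no test was made.

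In the Ensembl annotation, release 115, 5 of the 78 members (math-2, math-17, math-27, math-29 and math-50) are listed as pseudogenes. None of them had enough reads to test.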
